A study of Drosophila melanogaster with 12 samples.

Results

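The baseline transcriptomes of a larval brain and of a cultured blood-like cell line were compared in Drosophila melanogaster. The libraries were chosen by their labels: 3 control libraries of whole brains of 3rd instar larvae, grown on cornmeal food, and 3 of S2 cells, grown in Xpress medium. These are 6 of the 12 libraries of the series, and all 17737 genes of their tables were taken. The other 6 libraries carry a knockdown of Atx2, the gene of the RNA-binding protein Ataxin-2, and were not used. The treatment label of both control groups is none. It names no genotype, strain, driver or sex for the control brains and no control dsRNA for the S2 cells, and the number of brains pooled is not given in the sources used here. Whether the 3 replicates of a group came from different cultures or animals is not stated, and the spread behind each p-value may therefore be technical. Tissue, growth in an animal or in medium, and any difference in handling are joined in this contrast and cannot be told apart.

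The brain of a 3rd instar larva holds dividing neural stem cells (neuroblasts), their ganglion mother cells, immature and functioning neurons, and several classes of glia. S2 cells are an established line from late embryos that resemble macrophage-like blood cells, or hemocytes, which take up particles, secrete basement membrane and carry the Toll and Imd immune pathways. They are widely used to express transfected receptors and adhesion molecules.

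Poly(A) RNA was sequenced, and each deposited table gives counts per gene. Total counts were 29754856, 31579528 and 29971106 in the control brains, against 29020252, 27113843 and 25994555 in the control S2 cells. At these similar depths 12912 to 13192 genes had a count in a brain library, against 11138 to 11627 in an S2 library. The 100 most counted genes took 22.1 to 24.9% of a brain library and 31.7 to 32.4% of an S2 library. Levels are given in CPM, counts relative to the library total after scaling by trimmed means. Differences are on the log2 scale, brain over S2, with ± SE, so that positive values are higher in brain, and a gene was called where its adjusted p by the quasi-likelihood test of edgeR was under 0.05. Positions are from the BDGP6.54 annotation.

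The brain label was checked against marker lists. All 8 neuron markers, all 5 neuroblast markers and all 6 glial markers were over 1 CPM in brain. In S2 cells 2 of the neuron markers, 1 of the neuroblast markers and 4 of the glial markers were over 1 CPM as well. Of the 6 glial markers 5 were called higher and 1 lower in brain. The 8 neuron markers summed to 1739, 2210.3 and 2108 CPM in the control brains, against 111, 77.4 and 91.2 CPM in the control S2 cells, where elav and brp made up most of the sum. The blood-cell label of the S2 cells held only in part. The 8 hemocyte markers summed to 285, 187 and 257 CPM in brains, against 2420.1, 1589 and 1803 CPM in S2 cells, yet 3 of them (NimC1, Sr-CI and He) were under 1 CPM in S2 cells. Of the 8 markers 4 were called lower and 4 higher in brain, and Hml made up most of the S2 sum.

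The brain libraries also held RNA of marker genes of tissues that lie on or beside the brain, for several of them in unequal amounts. The 6 salivary glue genes summed to 5.95, 0.816 and 1682 CPM in brain libraries 1, 2 and 3, so library 3 stood apart. The 6 fat body genes summed to 446, 24.2 and 264 CPM, lowest in library 2. The 8 muscle genes summed to 118, 118 and 309 CPM, highest in library 3. The 5 ring gland genes measured, of the steroid and neurohormone gland attached to the brain, summed to 663, 441 and 543 CPM, and the 6 imaginal disc genes to 473 to 510.1 CPM. The 7 gut genes stayed at or under 2.39 CPM in sum. In S2 cells each of these lists but muscle (10.6 to 11.4 CPM) summed to under 2 CPM. Whether these reads came from such tissues or from the brain itself was not tested, nor was the part of these tissues in genes higher in brain. In bulk samples a smaller number of cells of a type and less RNA per cell cannot be told apart.

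Most genes differed. Of 10291 genes tested, 8248 (80.1%) passed an adjusted p of 0.05, 4311 (41.9%) higher and 3937 (38.3%) lower in brain, with a median log2 difference of 0.0623 over all genes tested. The counts of each gene group below are to be read against these shares. Scaling by library totals alone raised the median by 0.364, to 0.426, and gave 5282 genes higher and 2805 lower in brain. Of the genes named below with small differences, RpL41, moody, fra, SerT, KCNQ, Su(fu), boi and Atx2 lost their calls under that scaling. The sizes were unequal: 1846 genes (17.9%) were called and at least 16-fold higher in brain, against 433 (4.21%) at least 16-fold lower. The groups did not overlap for 8581 genes (83.4%). At the other end, 3448 genes (33.5%) had a 95% interval of the log2 difference that lay between -1 and 1, that is within 2-fold. With at least 5 CPM in each library of a group and 0 counts in the other group, 141 genes were read in brain alone and 8 in S2 cells alone.

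**Figure D1:**
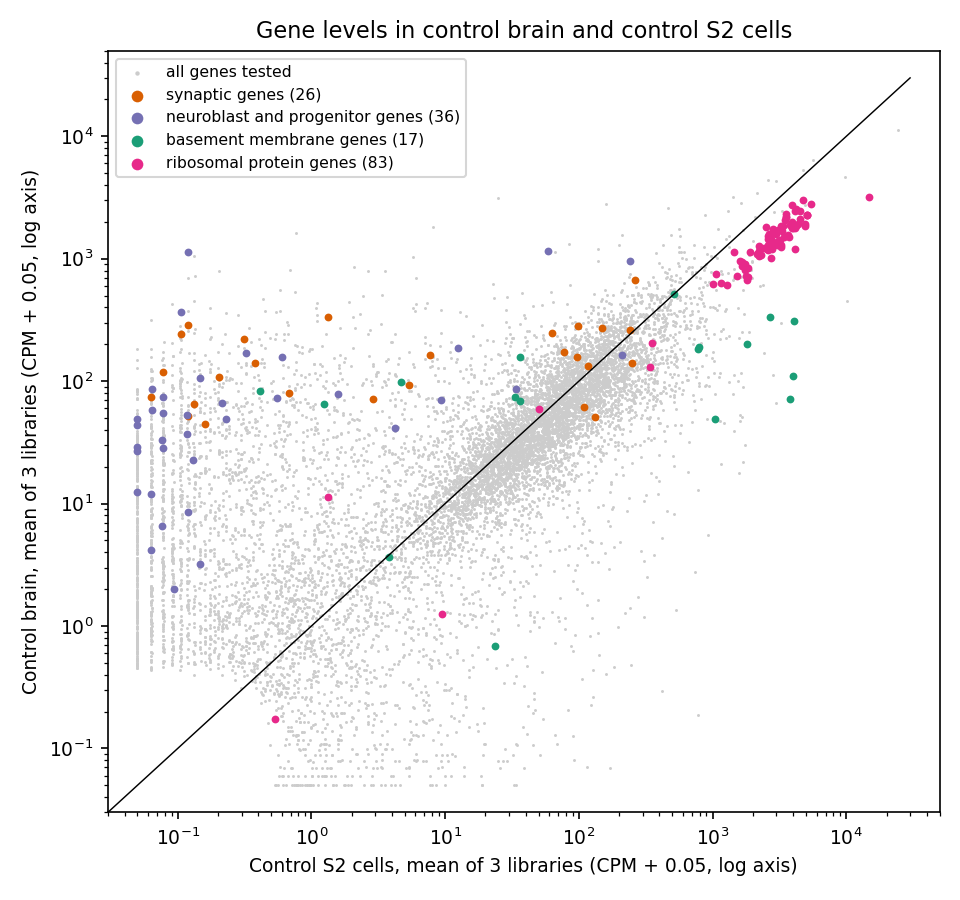
Mean level of each gene tested in control brains (vertical axis, CPM) against control S2 cells (horizontal axis, CPM), both on log axes after adding 0.05 CPM, with 3 libraries a group. Most of the 36 neuroblast genes lie above the line of equal levels near the left edge, and the 26 synaptic genes reach from there to the line. Most basement membrane genes and the ribosomal protein genes lie below the line on the right.

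The most abundant transcripts per kilobase of exon were nearly the same in both. The 100 highest genes of each group shared 86, and across 9641 coding genes tested the levels per kilobase had a Spearman rho of 0.682 (across genes, which are not independent replicates and share their libraries). The ribosomal protein gene RpL41 was first in both, with 8565 CPM per kb in brain and 12338 CPM per kb in S2 cells. The translation elongation factor gene eEF1alpha1 came next, with 4568 CPM per kb in brain and 9927 CPM per kb in S2 cells. Among the 10 highest of brain, 8 were these and other ribosomal protein genes. The other 2 were Obp44a, a gene of the odorant-binding protein family (3115, 3235 and 3099 CPM in the control brains, against 34.4, 15.7 and 24.1 CPM in the control S2 cells), and the small heat shock gene Hsp23. Every brain value of Obp44a was above every S2 value (log2 6.99 ± 0.31, adjusted p = 1.91e-07). Hsp23 had 3011, 2859 and 1883 CPM in the control brains, against 1089, 64.6 and 238 CPM in the control S2 cells, and its S2 libraries ranged widely, with library 1 the highest.

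Among the largest differences by the rule for named genes, 11 of 12 genes higher in brain had 0 counts in all 3 S2 libraries, so each fold is a lower bound against 3 counts over those libraries. robo3 (FBgn0041097, chromosome 2L, 1256417 to 1296596), a receptor of the midline repellent Slit, had 191, 199 and 157 CPM in the control brains, against 0 counts in every control S2 library (at least 4399-fold higher). The immunoglobulin adhesion gene sns had 86.1 CPM in brain against 0 counts in S2 cells (at least 2081-fold higher). The Hox gene Scr had 84.4 CPM in brain against 0 counts in S2 cells (at least 2026-fold higher). The zinc finger factor gene salr had 82.7 CPM in brain against 0 counts in S2 cells (at least 1999-fold higher). fj, a Golgi kinase of planar polarity (at least 1886-fold higher), tap, a neural bHLH factor (at least 1751-fold higher), goe (at least 3062-fold higher), Ktl (at least 1952-fold higher), CG14186 (at least 2045-fold higher), CG43737 (at least 1731-fold higher) and an identifier with no name in the annotation, FBgn0027341 (at least 3565-fold higher), were also read in brain alone. CG14989 had 317 CPM in brain against 0.0136 CPM in S2 cells (ratio 22983, counting interval 4125 to 907817, from 1 count in the S2 libraries).

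Of the 12 largest in the other direction, Elba3, a subunit of an embryonic insulator complex, had 0 counts in every control brain library, against 34.2, 34.4 and 32.8 CPM in the control S2 cells (at least 1164-fold lower), and CG31601 was likewise at 0 in brain (at least 1133-fold lower). cDIP (FBgn0038865, chromosome 3R, 21159238 to 21161092), a gene of a secreted leucine-rich repeat protein, had 0.242, 0.0281 and 0.144 CPM in the control brains, against 698, 807 and 828 CPM in the control S2 cells (log2 -12.44 ± 0.30, -13.05 without brain library 1, adjusted p = 1.14e-08). The alkaline phosphatase gene Alp10 had 0.0197 CPM in brain against 38.7 CPM in S2 cells (ratio 2003, counting interval 554 to 16552, from 2 counts in the brain libraries). The others have no described role: CG3251 (0.0195 CPM in brain against 171 CPM in S2 cells), CG4970 (0.0201 CPM in brain against 116 CPM in S2 cells), CG11929 (0.0302 CPM in brain against 91.1 CPM in S2 cells), CG18088 (0.245 CPM in brain against 416 CPM in S2 cells), CG9168 (0.037997 CPM in brain against 50.98 CPM in S2 cells), CG5697 (0.0769 CPM in brain against 90.6 CPM in S2 cells), lncRNA:CR44526 (0.0582 CPM in brain against 68.5 CPM in S2 cells) and CG34334 (0.0197 CPM in brain against 25.6 CPM in S2 cells). CG11929 (4682677 to 4687232), Elba3 (4687511 to 4688956) and CG3251 (4688965 to 4690702) lie close together on chromosome 2L. Whether their differences are separate was not tested.

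Neuronal genes were higher in brain by wide margins, with a set of synaptic machinery genes that S2 cells carried as well. Of 16 genes of neuronal RNA-binding and identity, 13 were called higher and 1 lower, with 2 uncalled, with a median of 3.50. fne (FBgn0086675, chromosome X, 12917477 to 12950417), a neuronal RNA-binding protein of the ELAV family, had 431, 518 and 459 CPM in the control brains, against 0.572, 0.282 and 0.303 CPM in the control S2 cells (log2 10.23 ± 0.20). Its relative elav (FBgn0260400, chromosome X, 509235 to 523226), the standard marker of neurons, had 426, 507 and 524 CPM in the control brains, against 28.03, 28.7 and 30.4 CPM in the control S2 cells (log2 4.06 ± 0.11, adjusted p = 1.80e-08). The elav groups did not overlap, but every S2 library held a measurable level. nerfin-1, a zinc finger factor of young neurons, had 425 ± 45.6 CPM in control brains and 0.0404 ± 0.0699 CPM in control S2 cells (ratio 10271, counting interval 3514 to 49807, from 3 counts in the S2 libraries). Syp, an RNA-binding protein that accumulates in older neuroblasts, was higher in brain (log2 3.13 ± 0.09), and Imp, which marks younger ones, was lower (113 ± 32.97 CPM in control brains and 239 ± 1.48 CPM in control S2 cells, log2 -1.08 ± 0.18).

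In the list of synaptic vesicle and active zone genes 22 were called higher and 3 lower, with 1 uncalled, of 26 tested, with a median of 4.54. Among the brain libraries, 25 of the 26 were lowest in library 1 and 1 in library 2. Library 1 was also lowest for 23 of 27 ion channel, 23 of 33 transmitter receptor and 14 of 19 transmitter synthesis and transport genes. Of 36 genes of neuropeptides and processing 20 were lowest there, and of 16 of neuronal RNA-binding and identity 9. Of 44 guidance and adhesion genes 17 were lowest in library 1 and 22 in library 3. nSyb, the neuronal synaptobrevin, had 232, 314 and 310.0 CPM in the control brains, against 0.0817, 0.0404 and 0.0867 CPM in the control S2 cells (log2 11.92 ± 0.25). Syt1, the calcium sensor of vesicle release, had 222 ± 28.9 CPM in control brains and 0.263 ± 0.103 CPM in control S2 cells (log2 9.70 ± 0.22), and the active zone genes Rim (ratio 4325, counting interval 1197 to 35716, from 2 counts in the S2 libraries) and nwk (ratio 5384, counting interval 966 to 212675, from 1 count in the S2 libraries) were close to 0 in S2 cells. Other release genes were at like orders of magnitude in both. unc-13 had 670.2 ± 81.6 CPM in control brains and 262 ± 32.1 CPM in control S2 cells (log2 1.35 ± 0.13). Csp, a vesicle chaperone, had 271 ± 16.4 CPM in control brains and 149 ± 3.66 CPM in control S2 cells (log2 0.86 ± 0.08). Syx1A, the plasma membrane syntaxin (log2 -0.81 ± 0.12), Rop, its Sec1 partner (log2 -0.82 ± 0.08), and the phosphatase Synj (log2 -1.38 ± 0.11) were lower in brain. brp, the main active zone scaffold, had 199, 298 and 244 CPM in the control brains, against 80.9, 47.9 and 60.03 CPM in the control S2 cells, a difference of only log2 1.97 ± 0.21. The pair stnA and stnB, which share a transcript, was listed at 0 in all 6 libraries.

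Transmitter genes were almost all higher in brain. Of 19 genes of transmitter synthesis and transport 18 were higher and 1, the serotonin transporter SerT, was lower (7.51 CPM in brain against 14.8 CPM in S2 cells, log2 -0.97 ± 0.29). VGlut, the vesicular glutamate transporter, had 192 ± 18.4 CPM in control brains and 0.233 ± 0.258 CPM in control S2 cells (log2 9.65 ± 0.35, 11.07 without S2 library 1). Gad1, which makes GABA, had 87.5 ± 32.9 CPM in control brains and 0.0541 ± 0.0469 CPM in control S2 cells (log2 10.52 ± 0.52). VAChT, the vesicular acetylcholine transporter, had 75.8 ± 13.9 CPM in control brains and 0.0279 ± 0.0242 CPM in control S2 cells (ratio 2751, counting interval 761 to 22720.4, from 2 counts in the S2 libraries). Of 33 receptor genes 32 were higher, 0 lower and 1 not past (Grd), with a median of 7.74. The GABA receptor Rdl had 56.5, 80.6 and 89.7 CPM in the control brains, against 0, 0.0404 and 0 CPM in the control S2 cells (ratio 5493, counting interval 986 to 216990.0, from 1 count in the S2 libraries). The nicotinic subunit nAChRalpha2 had 49.5 CPM in brain against 0 counts in S2 cells (at least 1196-fold higher). The nicotinic subunit nAChRbeta2 differed less, with 43.1 CPM in brain against 13.01 CPM in S2 cells (log2 1.73 ± 0.24).

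Among 27 ion channel genes 22 were higher and 5 lower in brain. The lower ones were the inward rectifier potassium channels Irk1 (0.582 CPM in brain against 12.1 CPM in S2 cells, log2 -4.37 ± 0.23) and Irk3 (8.18 CPM in brain against 41.6 CPM in S2 cells, log2 -2.34 ± 0.17), KCNQ (log2 -0.64 ± 0.20, with no call at -0.50 without brain library 1, -0.62 without brain library 2 or -0.60 without S2 library 3), the potassium channel subunit Hk (log2 -0.78 ± 0.13) and unc79 of the sodium leak channel complex (log2 -0.93 ± 0.17). Irk2 went the other way with 11.01 CPM in brain against 0 counts in S2 cells (at least 266-fold higher). The sodium leak channel na (ratio 1690.5, counting interval 578 to 8199, from 3 counts in the S2 libraries) and its partner unc80 (log2 8.31 ± 0.40) and the voltage-gated sodium channel para (log2 5.20 ± 0.34) were higher in brain. Of 29 neuropeptide genes 26 were called higher and 1 lower, with 2 uncalled, with a median of 8.18. The insulin-like peptide gene Ilp2 had 29.7 ± 10.04 CPM in control brains and 0.0136 ± 0.0236 CPM in control S2 cells (ratio 2148, counting interval 385 to 84887, from 1 count in the S2 libraries). amn was the exception, lower in brain with 0.762 CPM in brain against 8.16 CPM in S2 cells (log2 -3.41 ± 0.36).

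Genes of neural stem cells and of regional identity were close to 0 in S2 cells in most cases. Of 36 neuroblast and progenitor genes 35 were higher, 0 lower and 1 not past, with a median of 8.80. pros (FBgn0004595, chromosome 3R, 11328480 to 11407627), the factor that ends progenitor division, had 968, 1173 and 1252 CPM in the control brains, against 0.123, 0.0404 and 0.0433 CPM in the control S2 cells (log2 13.91 ± 0.25, 14.57 without S2 library 1). wor, a neuroblast Snail-family factor, had 86.9 ± 5.82 CPM in control brains and 0.0144 ± 0.02502 CPM in control S2 cells (ratio 6275, counting interval 1126 to 247858, from 1 count in the S2 libraries). mira, the adaptor that carries Pros to the daughter cell, had 156 ± 5.498 CPM in control brains and 0.551 ± 0.0667 CPM in control S2 cells (log2 8.13 ± 0.13). chinmo, an early temporal factor, was the member not past the threshold (163 ± 32.3 CPM in control brains and 211 ± 31.1 CPM in control S2 cells, log2 -0.37 ± 0.16, adjusted p = 0.0654, but called lower at -0.48 without brain library 3 or -0.50 without S2 library 2). brat, a growth suppressor, had 952 ± 7.85 CPM in control brains and 242 ± 20.96 CPM in control S2 cells (log2 1.98 ± 0.09).

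All 8 Hox genes were higher in brain. They summed to 163 to 202 CPM per brain library, against 0.0817 to 0.121 CPM per S2 library, and 4 of them had 0 counts in every S2 library. Per kilobase of exon, Scr and Antp were highest in brain, with 18.4 and 6.56 CPM per kb. lab, pb and Dfd, which act in the head, had 0.965, 1.17 and 2.64 CPM per kb in brain. Ubx, abd-A and Abd-B, which act towards the rear of the body, had 2.89, 2.18 and 0.206 CPM per kb in brain. Of 25 optic lobe and neuron fate factors 24 were higher. The exception was ap (FBgn0267978, chromosome 2R, 5706202 to 5727525), a LIM homeodomain factor of wing and neuron identity, with 114, 127 and 109 CPM in the control brains, against 1719, 1505 and 1656 CPM in the control S2 cells (log2 -3.80 ± 0.11, adjusted p = 2.36e-08). Every S2 value of ap was above every brain value. toy and ey, the Pax6 genes of eye and brain, had 221 CPM in brain against 0.357 CPM in S2 cells for toy and 79.2 CPM in brain against 1.52 CPM in S2 cells for ey.

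**Figure D2:**
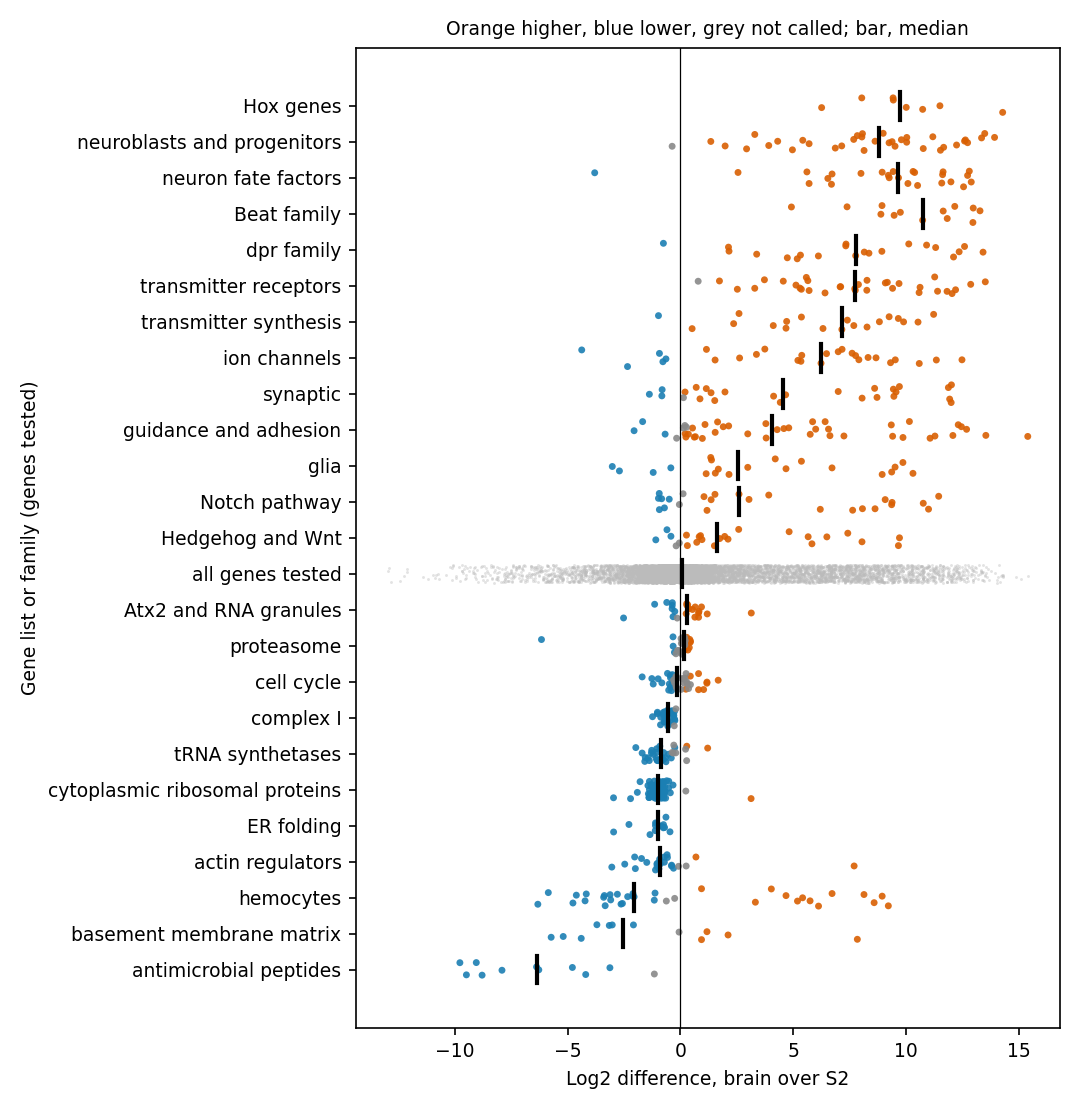
Log2 difference of each gene tested (brain over S2, horizontal axis) for the gene lists and families of the report, 1 point a gene, with the median as a bar. Neuroblast, Hox and receptor genes lie to the right, antimicrobial, basement membrane and ribosomal protein genes to the left, and proteasome and cell cycle genes close to 0.

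Glial genes were higher in brain in most but not all cases. Of 20 glial genes 16 were called higher and 4 lower, with 0 uncalled. repo (FBgn0011701, chromosome 3R, 18236192 to 18239602), the homeodomain factor that defines glia, had 74.3, 79.6 and 71.2 CPM in the control brains, against 0, 0.0404 and 0.13003 CPM in the control S2 cells (log2 10.30 ± 0.32, 11.56 without S2 library 3). alrm, an astrocyte gene, had 121 ± 7.96 CPM in control brains and 0.182 ± 0.0918 CPM in control S2 cells (log2 9.36 ± 0.22). The glial gene wrapper had 119 ± 6.39 CPM in control brains and 0.125 ± 0.0416 CPM in control S2 cells (log2 9.85 ± 0.18). Septate junction genes of the blood-brain barrier were present in S2 cells at lower levels: Nrx-IV had 473 ± 15.1 CPM in control brains and 148 ± 3.97 CPM in control S2 cells (log2 1.68 ± 0.07). Cont had 360.3 ± 18.7 CPM in control brains and 139 ± 7.39 CPM in control S2 cells (log2 1.37 ± 0.08). The 4 lower genes were moody, a barrier receptor (40.5 ± 2.01 CPM in control brains and 54.4 ± 2.24 CPM in control S2 cells, log2 -0.43 ± 0.09), loco (log2 -1.21 ± 0.12), the citrate transporter Indy (log2 -2.70 ± 0.09) and pnt, an Ets factor of receptor tyrosine kinase signalling (97.2 ± 5.16 CPM in control brains and 788 ± 89.6 CPM in control S2 cells, log2 -3.02 ± 0.11).

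Guidance and adhesion genes divided into those that S2 cells lacked and those that they shared. Of 44 genes 37 were called higher and 3 lower, with 4 uncalled, and the median was 0.82 for guidance receptors, 3.79 for ligands and 5.99 for adhesion genes. CadN, neural cadherin, had 347, 383 and 383 CPM in the control brains, against 0.123, 0.0404 and 0.0433 CPM in the control S2 cells (log2 12.30 ± 0.19, 12.96 without S2 library 1). shg, the epithelial cadherin, had 340.3 ± 16.2 CPM in control brains and 14.2 ± 2.41 CPM in control S2 cells (log2 4.58 ± 0.14), and the homophilic adhesion genes Fas2 (log2 5.99 ± 0.27) and Fas3 (log2 9.86 ± 0.20) were low in S2 cells at 5.86 and 0.401 CPM, against 373 and 375 CPM in brain. Dscam1, which acts in neuronal self-avoidance and as a hemocyte receptor, was lower in brain (211, 227 and 234 CPM in the control brains, against 1040.2, 824 and 925 CPM in the control S2 cells, log2 -2.05 ± 0.11). Dscam2 (log2 12.07 ± 0.32, 13.30 without S2 library 1 and 11.48 without S2 library 2) and Dscam3 (ratio 7300.4, counting interval 1310.0 to 288379, from 1 count in the S2 libraries) were near 0 in S2 cells. Ten-m, a teneurin of synaptic matching, was also lower in brain (391 ± 17.5 CPM in control brains and 1250.2 ± 105 CPM in control S2 cells, log2 -1.68 ± 0.10), as was fra, the Netrin receptor (log2 -0.68 ± 0.18). Slit and its receptor robo1 were shared: sli had 442 ± 23.5 CPM in control brains and 405 ± 80.3 CPM in control S2 cells (log2 0.13 ± 0.14, with no call, but called higher at 0.28 without S2 library 1). robo1 had 194 ± 14.1 CPM in control brains and 123 ± 5.91 CPM in control S2 cells (log2 0.66 ± 0.08), in contrast to robo3 above.

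In 4 families of neuronal recognition proteins all members tested but dpr17 and DIP-alpha, both named after their values were seen, were higher in brain. Many members had counts in S2 cells as well, while 7 of 14 Beat genes, 3 of 8 Sidestep genes, 5 of 21 dpr genes and 2 of 11 DIP genes had 0 counts in every S2 library. All 13 Beat genes tested and all 8 Sidestep genes were higher, and the Beat genes summed to 328 to 421 CPM per brain library against 0.646 to 1.39 CPM per S2 library. In the dpr family of 21 genes 20 were higher and dpr17 was lower (24.4 CPM in brain against 41.1 CPM in S2 cells, log2 -0.76 ± 0.13), and the family summed to 572 to 673 CPM per brain library against 55.8 to 63.4 CPM per S2 library. Of 11 DIP genes, the binding partners of Dpr proteins, 10 were higher, and DIP-alpha had no call (12.98 ± 2.496 CPM in control brains and 10.01 ± 0.746 CPM in control S2 cells, log2 0.37 ± 0.18, but called higher at 0.52 without brain library 1 and at 0.74 with library totals alone).

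In several signalling pathways a receptor, ligand or target was close to 0 in S2 cells while the core components were shared. N (FBgn0004647, chromosome X, 3134870 to 3172221), the Notch receptor, was lower in S2 cells but not absent, with 329, 330.4 and 318 CPM in the control brains, against 32.03, 52.01 and 35.1 CPM in the control S2 cells (log2 3.04 ± 0.18, adjusted p = 1.14e-06). Its ligand gene Delta had 113, 92.02 and 102 CPM in the control brains, against 0.123, 0.0807 and 0.2601 CPM in the control S2 cells (log2 9.35 ± 0.24). The other ligand gene, Ser, had 87.3 ± 13.4 CPM in control brains and 90.3 ± 5.02 CPM in control S2 cells (log2 -0.05 ± 0.12, 95% interval -0.32 to 0.22). All 8 target genes listed were higher in brain and summed to 481 to 792 CPM per brain library against 0.726 to 3.27 CPM per S2 library. Genes that act in the cleavage of Notch, kuz (log2 -0.97 ± 0.10), Psn (log2 -0.71 ± 0.08) and Nct (log2 -0.83 ± 0.07), were lower in brain. fng, the glycosyltransferase that tunes ligand choice, had 88.3 CPM in brain against 1.203 CPM in S2 cells (log2 6.19 ± 0.21).

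Of 10 Hedgehog pathway genes 6 were called higher and 3 lower, with 1 uncalled, with a median of 0.29. ci, the transcription factor at the end of the pathway, had 309, 267 and 306 CPM in the control brains, against 4.698, 2.02 and 3.12 CPM in the control S2 cells (log2 6.48 ± 0.26). smo, the membrane transducer, had 54.4 ± 2.18 CPM in control brains and 44.02 ± 3.97 CPM in control S2 cells (log2 0.31 ± 0.10, with no call at 0.21 without S2 library 1, 0.30 without S2 library 3, 0.34 without brain library 1 or 0.30 without brain library 3). The lower ones were disp, which releases the ligand (37.9 CPM in brain against 80.7 CPM in S2 cells, log2 -1.09 ± 0.09), the inhibitor Su(fu) (37.3 CPM in brain against 56.4 CPM in S2 cells, log2 -0.60 ± 0.09) and the co-receptor boi (117 CPM in brain against 156 CPM in S2 cells, log2 -0.42 ± 0.13, with no call at -0.43 without brain library 1, -0.44 without brain library 2, -0.33 without brain library 3 or -0.34 without S2 library 3). The kinase gene fu had no call (log2 -0.19 ± 0.14). In the Wnt list 13 of 14 genes were higher. The receptors fz (123 ± 10.1 CPM in control brains and 0.717 ± 0.105 CPM in control S2 cells, log2 7.41 ± 0.15) and fz2 (399 ± 44.5 CPM in control brains and 7.04 ± 1.05 CPM in control S2 cells, log2 5.82 ± 0.15) and the ligand wg (ratio 956, counting interval 264 to 7899.9, from 2 counts in the S2 libraries) were low in S2 cells, and the cytoplasmic genes dsh (log2 0.83 ± 0.09) and Axn (log2 0.72 ± 0.09) were shared, each higher in brain by less than 2-fold. In the list of growth factor and cytokine receptors, ligands and effectors 17 were called higher and 16 lower, with 4 uncalled, of 37 tested. Over all genes tested the shares were 41.9% higher and 38.3% lower. Egfr had 209.6, 189.8 and 184 CPM in the control brains, against 0.817, 0.686 and 0.694 CPM in the control S2 cells (log2 8.04 ± 0.13). Pvr (FBgn0032006, chromosome 2L, 8220980 to 8239878), the PDGF and VEGF receptor of blood cells, had 54.9, 46.8 and 51.6 CPM in the control brains, against 1625, 1687 and 1697 CPM in the control S2 cells (log2 -5.03 ± 0.11, adjusted p = 7.89e-09). Its ligands Pvf1 (4.31 CPM in brain against 98.3 CPM in S2 cells), Pvf2 (11.997 CPM in brain against 387 CPM in S2 cells) and Pvf3 (31.1 CPM in brain against 113 CPM in S2 cells) were lower in brain as well. The TNF receptor genes divided: grnd had 39.5 ± 3.64 CPM in control brains and 0.0271 ± 0.0234 CPM in control S2 cells (ratio 1426, counting interval 395 to 11780.0, from 2 counts in the S2 libraries). wgn had 25.5 ± 2.68 CPM in control brains and 78.4 ± 7.64 CPM in control S2 cells (log2 -1.62 ± 0.12).

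Ecdysone response genes were on the brain side in 12 of 17 cases. The receptor gene EcR had 181 ± 8.62 CPM in control brains and 70.4 ± 6.22 CPM in control S2 cells (log2 1.36 ± 0.09). Its partner usp had 66.2 ± 4.02 CPM in control brains and 71.8 ± 4.42 CPM in control S2 cells (log2 -0.12 ± 0.09, no call), and the early gene br had 1128, 1210.1 and 1126 CPM in the control brains, against 55.8, 62.8 and 56.4 CPM in the control S2 cells (log2 4.31 ± 0.10). ftz-f1 (log2 -1.81 ± 0.22) and the juvenile hormone receptor gene gce (log2 -2.19 ± 0.18) were lower in brain.

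Hemocyte genes had differences in both directions. Of 35 listed genes 13 were called higher and 20 lower, with 2 uncalled, a median of -2.05. srp (FBgn0003507, chromosome 3R, 15986152 to 16004085), the GATA factor of blood and fat body, had 15.5, 6.98 and 12.4 CPM in the control brains, against 319.6, 303 and 326 CPM in the control S2 cells (log2 -4.76 ± 0.27, adjusted p = 8.95e-07). Its cofactor ush (log2 -2.11 ± 0.12) and the repressor zfh1 (78.5 ± 2.19 CPM in control brains and 1415 ± 70.5 CPM in control S2 cells, log2 -4.17 ± 0.09) were lower in brain too. Hml, the clotting protein hemolectin, had 56.6, 21.1 and 62.8 CPM in the control brains, against 1604, 824 and 1009.5 CPM in the control S2 cells (log2 -4.61 ± 0.46). Tig, a secreted matrix protein of blood cells, had 34.4, 24.7 and 30.99 CPM in the control brains, against 1986, 1605 and 1615 CPM in the control S2 cells (log2 -5.85 ± 0.18). The thioester protein gene Tep2 had 89.8 ± 5.73 CPM in control brains and 1679 ± 117 CPM in control S2 cells (log2 -4.23 ± 0.11). The scavenger receptor gene crq had 70.6, 69.8 and 65.4 CPM in the control brains, against 436, 385 and 401 CPM in the control S2 cells (log2 -2.57 ± 0.09).

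Other blood-cell genes were higher in brain. NimC1, a phagocytic receptor of larval plasmatocytes, had 8.28, 9.91 and 4.65 CPM in the control brains, against 0.123, 0.161 and 0.13003 CPM in the control S2 cells (log2 5.74 ± 0.43). Sr-CI, a scavenger receptor, had 15.9, 4.16 and 21.6 CPM in the control brains, against 0.572, 0.484 and 0.563 CPM in the control S2 cells (log2 4.67 ± 0.63). He, hemese, had 17.4, 6.78 and 12.5 CPM in the control brains, against 0.531, 0.121 and 0.347 CPM in the control S2 cells (log2 5.18 ± 0.53). The prophenoloxidase genes of crystal cells, PPO1 and PPO2, were higher in brain. PPO1 had 18.1, 10.4 and 118 CPM in the control brains, against 5.92, 6.25 and 2.51 CPM in the control S2 cells (log2 3.32 ± 0.91, 1.57 without brain library 3). PPO2 had 28.9, 16.3 and 150.1 CPM in the control brains, against 0.245, 0 and 0.2601 CPM in the control S2 cells (log2 8.58 ± 1.23, 7.08 without brain library 3 and 7.97 without S2 library 2). Both were highest in brain library 3, which also held the glue RNA. PPO3, of lamellocytes, was on the S2 side (3.67 ± 0.636 CPM in control brains and 37.1 ± 2.32 CPM in control S2 cells, log2 -3.33 ± 0.16). Among the brain libraries, library 2 was lowest in all 6 fat body genes tested. Of the 35 hemocyte genes, 7 were lowest in brain library 1, 15 in library 2 and 13 in library 3. srp, Hml, He and Sr-CI were lowest in library 2, whereas NimC1 was highest there and crq was lowest in library 3. The part of hemocytes attached to the dissected brains was not tested.

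The matrix genes of the basement membrane were about an order of magnitude lower in brain in sum, and single members and the integrins went both ways. The 12 matrix genes summed to 1523 to 1731 CPM per brain library, against 17338 to 18843 CPM per S2 library, and 7 were lower, 4 higher and 1 not past. vkg (FBgn0016075, chromosome 2L, 5012144 to 5028191), the collagen IV alpha2 chain, had 76.1, 48.7 and 90.6 CPM in the control brains, against 3315, 4230.3 and 3863 CPM in the control S2 cells (log2 -5.73 ± 0.26, adjusted p = 2.40e-07). Col4a1, the partner chain, had 117, 74.1 and 137 CPM in the control brains, against 3646, 4389 and 3971 CPM in the control S2 cells (log2 -5.19 ± 0.25). The laminin chains LanA (log2 -3.70 ± 0.11), LanB1 (log2 -3.02 ± 0.10) and LanB2 (log2 -3.15 ± 0.09) and the collagen-binding SPARC (49.4 ± 6.75 CPM in control brains and 1039 ± 107 CPM in control S2 cells, log2 -4.39 ± 0.14) were lower in brain. The alternative laminin alpha chain wb (log2 1.17 ± 0.14), the perlecan gene trol (156 ± 24.4 CPM in control brains and 36.3 ± 3.93 CPM in control S2 cells, log2 2.11 ± 0.14) and the collagen XV/XVIII gene Mp (82.999 ± 19.5 CPM in control brains and 0.3597 ± 0.125 CPM in control S2 cells, log2 7.83 ± 0.29) were higher. Integrin genes also went both ways: the beta chain mys (189.6 ± 1.56 CPM in control brains and 795 ± 64.8 CPM in control S2 cells, log2 -2.07 ± 0.09) was lower in brain, while the alpha chains if (log2 5.77 ± 0.19) and mew (log2 4.39 ± 0.29) were higher.

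**Figure D3:**
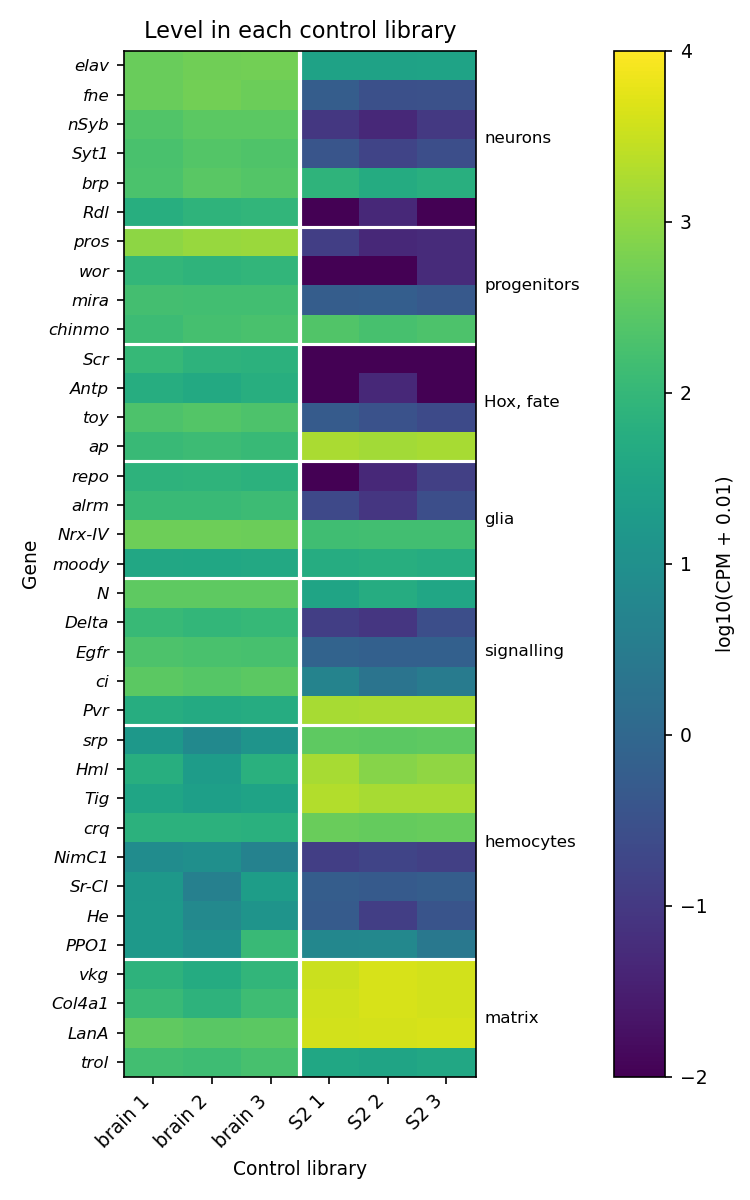
Level of selected genes in each of the 6 libraries (columns, control brains left and control S2 cells right) as log10 of CPM plus 0.01, with rows grouped by gene list. The 3 libraries of a group are alike in most rows, and the rows of hemocyte genes show both directions.

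Toll and Imd pathway genes were mostly lower in brain. Of 40 genes tested 5 were called higher and 31 lower, with 4 uncalled, with a median of -1.95. The recognition receptor gene PGRP-LC had 9.77 ± 0.2002 CPM in control brains and 84.9 ± 9.21 CPM in control S2 cells (log2 -3.12 ± 0.11). spz, the Toll ligand, had 19.5, 19.6 and 21.6 CPM in the control brains, against 525, 472 and 548 CPM in the control S2 cells (log2 -4.67 ± 0.10). In the signalling core the differences were smaller, with a median of -1.44 over 18 genes. imd (log2 -1.77 ± 0.11), Rel (log2 -1.62 ± 0.15) and dl (log2 -2.32 ± 0.08) were lower. Toll itself, Tl, was higher in brain (192 ± 11.7 CPM in control brains and 88.2 ± 4.31 CPM in control S2 cells, log2 1.13 ± 0.08), and so was the inhibitor cact (log2 0.47 ± 0.08). PGRP-LE, an intracellular receptor, was higher as well (26.6 ± 1.59 CPM in control brains and 1.74 ± 0.4396 CPM in control S2 cells, log2 3.93 ± 0.20). The 14 antimicrobial peptide genes summed to 3.38 to 4.19 CPM per brain library, against 117 to 209.8 CPM per S2 library. DptB, a diptericin, had 0.0302, 0.0281 and 0.0289 CPM in the control brains, against 12.6, 55.9 and 18.7 CPM in the control S2 cells (ratio 1012, counting interval 346 to 4909, from 3 counts in the brain libraries). Its S2 value was highest in library 2, without which the ratio was 536. AttA and AttB are near-identical copies, whose counts may be divided between them in ways the files do not show.

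Metabolic genes were lower in brain in most cases. Of 14 glycolysis genes 0 were called higher and 11 lower, with 3 uncalled (1 higher and 7 lower with library totals alone). Ldh (FBgn0001258, chromosome 3L, 6259105 to 6262694), lactate dehydrogenase, had 23.7, 26.8 and 85.7 CPM in the control brains, against 1769.7, 596 and 1297 CPM in the control S2 cells (log2 -4.75 ± 0.63, -5.55 without brain library 3, adjusted p = 1.62e-04). The 2 genes for glyceraldehyde phosphate dehydrogenase differed from each other: Gapdh1 had 282 ± 75.3 CPM in control brains and 857 ± 22.4 CPM in control S2 cells (log2 -1.61 ± 0.17). Gapdh2 had 639.6 ± 110.1 CPM in control brains and 585 ± 99.4 CPM in control S2 cells (log2 0.13 ± 0.16, no call). In the lipid list 11 of 18 were lower. FASN1, fatty acid synthase (274, 254 and 372 CPM in the control brains, against 3315, 3198 and 3239.9 CPM in the control S2 cells, log2 -3.44 ± 0.16), its activator SREBP (223 ± 14.5 CPM in control brains and 1571 ± 75.6 CPM in control S2 cells, log2 -2.82 ± 0.10) and the desaturase gene Desat1 (log2 -2.72 ± 0.12) were among them. The 6 genes higher in brain included the lipid droplet gene Lsd-2 (207 ± 11.2 CPM in control brains and 0.0407 ± 0.0409 CPM in control S2 cells, ratio 4977, counting interval 1703 to 24136, from 3 counts in the S2 libraries), the lipoprotein receptor gene LpR1 (log2 6.56 ± 0.52, 8.04 without S2 library 1) and apolpp, a fat body lipoprotein gene (302, 316 and 394 CPM in the control brains, against 2.41, 2.18 and 1.39 CPM in the control S2 cells, log2 7.39 ± 0.21). Its brain value was lowest in brain library 1, and the fat body genes were lowest in brain library 2. The part of fat body in the brain level of apolpp was not tested.

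Insulin and TOR pathway genes differed in both directions. Of 20 genes of the pathway 5 were called higher and 11 lower, with 4 uncalled, with a median of -0.39 (9 higher and 9 lower with library totals alone). Thor (FBgn0261560, chromosome 2L, 3478434 to 3479612), the inhibitor of cap-dependent translation 4E-BP, had 65.3, 38.6 and 38.9 CPM in the control brains, against 1899, 1244 and 1643 CPM in the control S2 cells (log2 -5.07 ± 0.28). ImpL2, a secreted protein that binds insulin-like peptides, had 185, 173 and 149 CPM in the control brains, against 3333, 1552 and 2444 CPM in the control S2 cells (log2 -3.85 ± 0.28), and Sesn (log2 -2.61 ± 0.22) and REPTOR (log2 -2.29 ± 0.14) were lower in brain. The kinase gene Akt had no call (238 ± 7.55 CPM in control brains and 225 ± 9.16 CPM in control S2 cells, log2 0.08 ± 0.07). Sdr, another secreted insulin-binding protein, was read in brain (49.1 ± 7.27 CPM in control brains and 0.0704 ± 0.0516 CPM in control S2 cells, log2 9.39 ± 0.30, 10.08 without S2 library 3). All 14 genes of endoplasmic reticulum folding and secretion were lower in brain, with a median of -1.003. The folding stress factor Xbp1 had 353 ± 18.3 CPM in control brains and 1716 ± 62.2 CPM in control S2 cells (log2 -2.28 ± 0.09). Hsc70-3, the lumenal chaperone BiP, had 1100.5 ± 85.9 CPM in control brains and 2369.6 ± 654 CPM in control S2 cells (log2 -1.11 ± 0.18). Of 11 heat shock genes 4 were called higher and 3 lower, with 4 uncalled (6 higher and 1 lower with library totals alone). The small heat shock gene Hsp23 was higher in brain (log2 2.48 ± 0.85, 4.07 without S2 library 1, and with no call at 2.14 without S2 library 3). Hsp27 was higher too (log2 2.91 ± 0.72, 4.25 without S2 library 1).

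Metal and detoxification genes differed in both directions. MtnA, GstE9 and GstZ2 are named after their values were seen. MtnA, a metallothionein that binds copper, had 72.5, 39.7 and 85.2 CPM in the control brains, against 4161, 1958 and 2881 CPM in the control S2 cells (log2 -5.51 ± 0.40). The ferritin subunits, which assemble together into a shell, had opposite differences. Fer1HCH (FBgn0015222, chromosome 3R, 30385573 to 30388178), the heavy chain, had 457, 465 and 429.6 CPM in the control brains, against 14342, 6907 and 8962 CPM in the control S2 cells (log2 -4.48 ± 0.28, adjusted p = 1.45e-06). Fer2LCH (FBgn0015221, chromosome 3R, 30387804 to 30390584), the light chain, had 375, 388 and 383 CPM in the control brains, against 44.9, 14.2 and 25.9 CPM in the control S2 cells (log2 3.75 ± 0.37, adjusted p = 2.49e-05). The 2 genes overlap in the annotation, so reads of the shared stretch could be assigned to neither or to one. In brain the light chain made up 45.1, 45.4 and 47.1% of the counts of the pair, against 0.312, 0.205 and 0.288% in S2 cells. Glutathione S-transferase genes were lower in brain in 19 of 33 cases and higher in 8 (12 higher and 16 lower with library totals alone). GstE9 had 1.35 CPM in brain against 241 CPM in S2 cells (log2 -7.48 ± 0.34). GstS1 had 274 CPM in brain against 1.58 CPM in S2 cells (log2 7.43 ± 0.17) and GstZ2 455 CPM in brain against 0.0832 CPM in S2 cells (log2 12.35 ± 0.17). Of 57 cytochrome P450 genes 24 were called higher and 24 lower, with 9 uncalled. That is close to the shares over all genes tested, 41.9% higher and 38.3% lower.

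Genes of the translation machinery, of complex I and of the vacuolar ATPase were mostly lower in brain, in most cases by small factors. Of 83 cytoplasmic ribosomal protein genes 81 were lower, 1 higher and 1 not past, with a median of -0.997. Together they held 133704, 117320 and 105958 CPM in the control brains, against 256641, 230326 and 248838 CPM in the control S2 cells. The higher gene was RpS5b, a copy of RpS5a used in the germ line (11.3 ± 2.36 CPM in control brains and 1.28 ± 0.197 CPM in control S2 cells, log2 3.13 ± 0.25), and RpS5a had log2 -0.98 ± 0.10. Its reads and those of other copies such as RpS19b (1.203 CPM in brain against 9.42 CPM in S2 cells) may be divided with their near-identical partners. Aminoacyl-tRNA synthetase genes were lower in 24 of 32 cases (median -0.86), mitochondrial ribosomal protein genes in 55 of 71 (median -0.58) and complex I genes in 30 of 32 (median -0.56). With library totals alone 19 of the synthetase genes, 23 of the mitochondrial ribosomal protein genes and 12 of the complex I genes were lower, and 76 of the cytoplasmic ribosomal protein genes. Of 22 vacuolar ATPase genes 6 were called higher and 15 lower, with 1 uncalled.

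Proteasome and cell cycle genes had medians close to 0. Of 33 proteasome genes 14 were called higher and 4 lower, with 15 uncalled, with a median of 0.18 (28 higher and 1 lower with library totals alone). Rpt6R, a copy of Rpt6 named after its values were seen, stood apart with 1.11 CPM in brain against 79.1 CPM in S2 cells (log2 -6.16 ± 0.23). Of 39 cell cycle genes 8 were called higher and 15 lower, with 16 uncalled, with a median of -0.17 (18 higher and 5 lower with library totals alone, and 10 higher and 9 lower with relative log expression scaling). Among the brain libraries, 33 of the 39 were lowest in library 2 and 31 were highest in library 3. PCNA, the sliding clamp of replication, had 184 ± 12.004 CPM in control brains and 181 ± 47.7 CPM in control S2 cells (log2 0.03 ± 0.17, 95% interval -0.37 to 0.43). CycB3 was higher (103 ± 19.1 CPM in control brains and 32.5 ± 5.77 CPM in control S2 cells, log2 1.67 ± 0.17). ncd, a mitotic kinesin (103.5 ± 8.88 CPM in control brains and 335 ± 53.6 CPM in control S2 cells, log2 -1.70 ± 0.13), stg (log2 -1.27 ± 0.15) and Myc (log2 -1.21 ± 0.09) were lower in brain.

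The series title names the cytoskeleton, and its most abundant genes were at like levels in both groups. Act5C, the main cytoplasmic actin gene, had 6461 ± 606 CPM in control brains and 5607 ± 839.9 CPM in control S2 cells (log2 0.20 ± 0.14, no call), and Act42A had 1252 ± 119.5 CPM in control brains and 1321 ± 440.0 CPM in control S2 cells (log2 -0.08 ± 0.23, no call). alphaTub84B (4346 ± 239 CPM in control brains and 2990.3 ± 90.3 CPM in control S2 cells, log2 0.54 ± 0.09) and betaTub56D (3452 ± 304 CPM in control brains and 2132 ± 116 CPM in control S2 cells, log2 0.70 ± 0.10) were higher in brain by less than 2-fold. The minor isotypes alphaTub85E (6.702 CPM in brain against 0.0688 CPM in S2 cells), betaTub85D (6.08 CPM in brain against 0.0144 CPM in S2 cells, ratio 441, counting interval 78.9 to 17453, from 1 count in the S2 libraries) and betaTub97EF (22.9 CPM in brain against 4.51 CPM in S2 cells, log2 2.34 ± 0.24) were low in brain and close to 0 or lower still in S2 cells. Of 24 actin regulators 20 were lower in brain, among them the Arp2/3 subunit gene Arpc1 (133 ± 6.43 CPM in control brains and 532 ± 10.9 CPM in control S2 cells, log2 -1.998 ± 0.08), gelsolin, Gel (log2 -2.47 ± 0.09), and the formin capu (log2 -2.03 ± 0.14). sn, the fascin that bundles actin filaments, was on the brain side with 576, 517 and 389 CPM in the control brains, against 1.63, 3.55 and 1.95 CPM in the control S2 cells (log2 7.69 ± 0.30). chic, profilin, was higher by log2 0.69 ± 0.09.

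Some microtubule proteins of axons were higher in brain, while the lists that hold them went both ways. Over all genes tested 41.9% were called higher and 38.3% lower. Of 19 microtubule-associated protein genes 7 were called higher and 5 lower, with 7 uncalled (14 higher and 1 lower with library totals alone), and of 24 kinesin and dynein genes 6 were called higher and 10 lower, with 8 uncalled (10 higher and 4 lower with library totals alone). tau had 101, 124 and 98.3 CPM in the control brains, against 1.103, 0.847 and 0.607 CPM in the control S2 cells (log2 6.97 ± 0.21). futsch, the MAP1B relative, had 131 ± 39.7 CPM in control brains and 5.78 ± 0.592 CPM in control S2 cells (log2 4.50 ± 0.24). stai, stathmin, had 560.1 ± 73.6 CPM in control brains and 157 ± 21.5 CPM in control S2 cells (log2 1.83 ± 0.14). The synaptic vesicle kinesin unc-104 had 350.1 ± 23.05 CPM in control brains and 39.02 ± 8.34 CPM in control S2 cells (log2 3.17 ± 0.16). Conventional kinesin, Khc, had 276 ± 16.7 CPM in control brains and 258 ± 17.9 CPM in control S2 cells (log2 0.10 ± 0.09, 95% interval -0.10 to 0.30). Cytoplasmic dynein, Dhc64C, had 271 ± 43.9 CPM in control brains and 306 ± 48.5 CPM in control S2 cells (log2 -0.18 ± 0.15, no call). Ank2, the neuronal ankyrin, had 529, 602 and 541 CPM in the control brains, against 0.654, 0.686 and 0.2601 CPM in the control S2 cells (log2 10.004 ± 0.22). Its relative Ank had 489 ± 24.6 CPM in control brains and 448 ± 21.3 CPM in control S2 cells (log2 0.13 ± 0.08, no call). beta-Spec (log2 0.79 ± 0.09) was higher and the apical spectrin kst (log2 -1.40 ± 0.13) lower in brain.

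Atx2 (FBgn0041188, chromosome 3R, 15408423 to 15417277) had 165, 172 and 172 CPM in the control brains, against 240.1, 205 and 213 CPM in the control S2 cells (log2 -0.37 ± 0.08, adjusted p = 0.00341), a call of less than 2-fold that was lost with library totals alone (log2 -0.004). Of 23 genes of its partners and of RNA granules, Atx2 included, 14 were called higher and 8 lower, with 1 uncalled, with a median of 0.28. With library totals alone there were 14 higher and 2 lower. The partner gene pAbp was lower (log2 -0.25 ± 0.09), but had no call at -0.22 without brain library 1, -0.21 without brain library 2, -0.25 without S2 library 2 or -0.29 without S2 library 3, and was higher with library totals alone. me31B (log2 0.82 ± 0.10) and rin (827 ± 32.8 CPM in control brains and 474 ± 50.9 CPM in control S2 cells, log2 0.80 ± 0.10) were higher in brain. The largest differences in the list were those of orb (14.6 CPM in brain against 1.65 CPM in S2 cells, log2 3.14 ± 0.20) and larp, a La-related protein (233 ± 19.7 CPM in control brains and 1338 ± 301 CPM in control S2 cells, log2 -2.52 ± 0.17).

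In several families 1 copy was close to 0 in S2 cells and its partner was higher there. eEF1alpha2 (FBgn0000557, chromosome 3R, 31738468 to 31743306) had 1794, 1804 and 1246 CPM in the control brains, against 0.899, 0.484 and 0.7802 CPM in the control S2 cells (log2 11.12 ± 0.28), and eEF1alpha1 was lower in brain (log2 -1.12 ± 0.10). The second copy made up 13.2, 14.6 and 9.89% of the counts of the pair in the control brains, against 0.00358, 0.00203 and 0.00319% in the control S2 cells. Snap25 was near 0 in S2 cells (log2 9.45 ± 0.34, 8.87 without S2 library 1 and 10.10 without S2 library 2), where Snap24 was higher than in brain (52.9 ± 8.36 CPM in control brains and 118 ± 4.68 CPM in control S2 cells, log2 -1.16 ± 0.12). nSyb and Syb (128 ± 3.03 CPM in control brains and 238 ± 15.6 CPM in control S2 cells, log2 -0.89 ± 0.08) and the vesicle fusion ATPases comt (log2 4.66 ± 0.26) and Nsf2 (log2 -0.91 ± 0.08) followed the same pattern. Among sodium pump beta subunits nrv3 was the brain copy (273 ± 35.01 CPM in control brains and 0.289 ± 0.2101 CPM in control S2 cells, log2 9.86 ± 0.28, 10.62 without S2 library 1) and nrv1 the one higher in S2 cells (93.3 ± 10.5 CPM in control brains and 473 ± 55.6 CPM in control S2 cells, log2 -2.34 ± 0.12), with nrv2 (log2 1.14 ± 0.08) between them. Gap junction genes ogre (log2 6.14 ± 0.33), Inx2 (843, 805 and 712 CPM in the control brains, against 1.798, 4.48 and 1.47 CPM in the control S2 cells, log2 8.24 ± 0.39, 8.88 without S2 library 2) and Inx3 (log2 7.29 ± 0.12) were on the brain side, and zpg, the germ line innexin, was on the S2 side (0.0906, 0.0563 and 0.0289 CPM in the control brains, against 23.9, 43.4 and 34.8 CPM in the control S2 cells, log2 -9.09 ± 0.39).

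**Figure D4:**
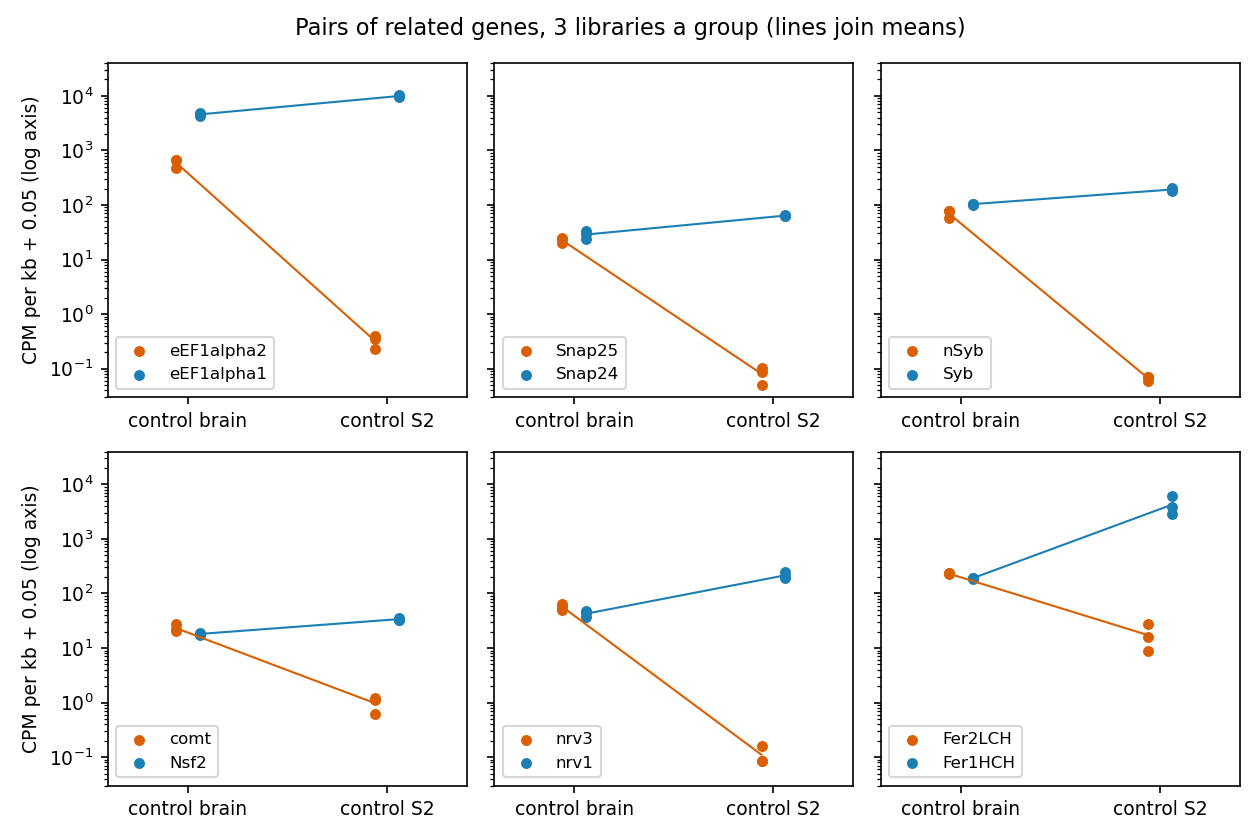
Level in each library (CPM per kb of exon, log axis, 0.05 added) of pairs of related genes, control brains left of control S2 cells in each panel, with lines joining group means. In brain the copies of a pair lie close to each other in all panels but that of the elongation factors, and in S2 cells eEF1alpha2, Snap25, nSyb, comt, nrv3 and Fer2LCH lie far below their partners.

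Genes of the small RNA pathways had differences in both directions. In the microRNA and siRNA list 5 genes were higher and 5 lower (5 higher and 3 lower with library totals alone). loqs was higher by log2 2.88 ± 0.11, AGO1 by log2 0.49 ± 0.09, and AGO2 (384 ± 11.7 CPM in control brains and 615 ± 6.91 CPM in control S2 cells, log2 -0.68 ± 0.08) and Dcr-2 (log2 -0.82 ± 0.09) were lower in brain. Of 20 piRNA pathway genes 5 were called higher and 13 lower, with 2 uncalled. piwi was low in both (0.787 CPM in brain against 7.16 CPM in S2 cells, log2 -3.18 ± 0.31), while krimp (4.53, 4.76 and 4.93 CPM in the control brains, against 144, 153 and 139 CPM in the control S2 cells, log2 -4.94 ± 0.10) and fs(1)Yb (0.923 CPM in brain against 50.4 CPM in S2 cells, log2 -5.76 ± 0.26) were on the S2 side. blanks, an RNA-binding protein gene named after its values were seen, had 1.99, 1.24 and 0.693 CPM in the control brains, against 459.8, 625 and 516 CPM in the control S2 cells (log2 -8.68 ± 0.33).

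The 2 roX RNAs of the male dosage compensation complex went opposite ways. roX1 had 720.2, 817 and 904 CPM in the control brains, against 0.449, 0.444 and 1.04 CPM in the control S2 cells (log2 10.31 ± 0.27). roX2 had 33.8, 32.7 and 27.6 CPM in the control brains, against 104.1, 111 and 117 CPM in the control S2 cells (log2 -1.82 ± 0.11). msl-2, the male-specific subunit, had 61.7 ± 8.85 CPM in control brains and 114 ± 14.3 CPM in control S2 cells (log2 -0.89 ± 0.13). Sxl (393 ± 37.9 CPM in control brains and 154 ± 35.6 CPM in control S2 cells, log2 1.35 ± 0.17) and dsx (36.2 CPM in brain against 2.65 CPM in S2 cells, log2 3.78 ± 0.23) were higher in brain. None of the 12 Y-linked genes listed was tested, since they summed to 0.0281 to 0.231 CPM in brain and 0 to 0.0867 CPM in S2 cells. Outside the list 3 genes of the Y were tested, all at low levels, with 0 called higher and 2 lower in brain. Clock genes per (8.83 CPM in brain against 0.661 CPM in S2 cells, log2 3.73 ± 0.25) and cry (2.62 CPM in brain against 0.0415 CPM in S2 cells, ratio 63.3, counting interval 21.4 to 309, from 3 counts in the S2 libraries) were higher in brain at low levels, and cwo (54.7 ± 7.25 CPM in control brains and 202 ± 63.2 CPM in control S2 cells, log2 -1.89 ± 0.21) and Pdp1 (log2 -2.65 ± 0.22) lower.

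Differences varied with gene length and with chromosome. Coding genes were cut into 5 equal groups by the span from start to end in the BDGP6.54 annotation. In the longest, of 9417 bases or more, 67.7% of 1928 genes were higher and 21.8% lower in brain, with a median of 1.54. In the shortest, of 1417 bases or fewer, 27.3% were higher and 47.3% lower, with a median of -0.32. By exon length the longest group had 60.6% higher and the shortest 29.9%. Across the 9641 coding genes Spearman's rho with the log2 difference was 0.266 for span and 0.203 for exon length, across genes that share libraries.

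By chromosome, genes with at least 20 CPM in both groups were compared, which leaves out genes silent in either. Their median log2 difference was -0.04 for the 778 genes of the X, -0.43 for 801 genes of 2L, -0.30 for 2R, -0.24 for 3L and -0.24 for 3R. The 44 genes of the small chromosome 4 had a median of 0.50. On chromosome 4, 61 of all 90 genes tested were higher and 15 lower in brain, against 41.9% and 38.3% over all genes. Among genes of at least 20 CPM in both groups, 56.1% were lower in brain on 2L and 40.7% on the X. The other arms of this set had 51.8% lower on 2R, 49.4% on 3L, 48.3% on 3R and 22.7% on chromosome 4. The 38.3% over all genes tested belongs to a different set of genes.

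**Figure D5:**
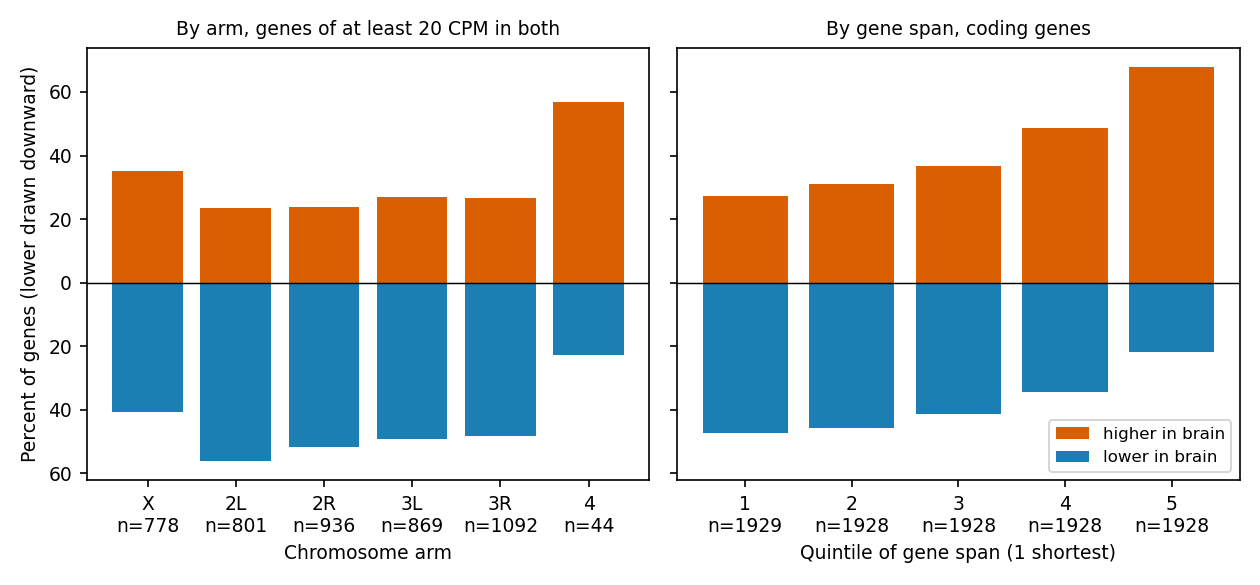
Percent of genes tested that were called higher (upward) or lower (downward) in brain, by chromosome arm for genes of at least 20 CPM in both groups (left) and by quintile of gene span for coding genes (right). Chromosome 4 has the largest share higher, 2L the largest share lower, and the share higher grows with span.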

How the data were processed

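Gene counts of 6 libraries were used, 3 of control brains and 3 of control S2 cells, with 25994555 to 31579528 counts each. The authors deposited whole-number counts per gene from TruSeq mRNA libraries, per the labels. Per the submitters' processing notes the tools were cutadapt 1.13, STAR, HTSeq 0.6.1p1 and DESeq2, with the build BDGP6. Strand setting and annotation release are not given there, and counts of overlapping, antisense and near-identical genes are uncertain for that reason. Of 17737 identifiers 17599 matched the Ensembl BDGP6.54 annotation. The 138 others held 1.13 to 1.39% of the counts and were tested too. All 13 listed genes of the mitochondrial genome were listed at 0 in all libraries, as were stnA and stnB.

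The edgeR 4.0.16 functions filterByExpr (minimum count 10), TMM scaling and the quasi-likelihood F test were run in R 4.3.3, adjusting by Benjamini-Hochberg over the whole table, with a threshold of 0.05. CPM use TMM-scaled library sizes, and an SE is the log2 difference over the root of F. Folds against a group at 0 are lower bounds that set it to 3 counts in sum. Against 1 to 3 counts, ratios have exact 95% intervals that cover counting error only. Replicates were checked for duplication (chi-square 23.8 to 85.8 per degree of freedom), so none differed by as little as sampling noise. On simulated counts for 10410 genes, 93% of 2-fold and 100% of 4-fold changes were called, with 7 false calls. There both groups had the same mean levels and a fixed dispersion. At each size 100 genes were changed, as many up as down. Far more genes differ in the data, and unequally, so these shares do not carry over to this contrast. The libraries and the 58 gene lists, of which 911 genes matched and 9 symbols did not, were chosen with earlier results of these data known. Families apart from these lists were taken by patterns in gene symbols, which also bring in divergent copies such as Rpt6R and RpS5b. They are ribosomal proteins, proteasome, tRNA synthetases, complex I, vacuolar ATPase, Beat, Sidestep, dpr, DIP, glutathione S-transferases and cytochrome P450. Named are the 12 largest differences of each sign (called, 20 CPM or more where higher, groups apart), the 10 highest per kb, up to 5 called genes of each sign per list, related gene pairs, Atx2, and list members whose role is described. MtnA, blanks, dpr17, DIP-alpha, GstE9, GstZ2 and Rpt6R were chosen after their values were seen. Lists are described by counts and medians without a test. Scaling, filters, DESeq2 1.42.0, a test against 2-fold, a replicate block and leaving out each library were tried as alternatives.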

Additional observations from a re-analysis of the deposited data

How the results depend on the processing

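The counts of genes called, in each direction and at 2-fold, stayed within 1.5 times under the alternatives run, except with a test against a 2-fold difference, which called 4565 genes, 2857 higher and 1708 lower in brain. DESeq2 called 8816 of 14795 genes, and the fit without a filter 8979. Leaving out 1 library gave 7820 to 8335 calls. Replicate numbers did not pair the samples: deviations of same-numbered libraries correlated between -0.0107 and 0.0198, and a fit with the replicate block called 7901 genes. Of 3534 values of the 253 named genes, 3426 kept direction and side of the threshold, 72 lost a call, 16 gained one and 20 changed direction. Besides pAbp (log2 0.11 with library totals alone), the changes of direction were in genes with no call. With library totals alone these were chinmo (0.0042), Ser (0.31), usp (0.25), Act42A (0.27), fu (0.18) and Dhc64C (0.19), in step with the shift of the median. With RLE scaling, the stricter filter and DESeq2, Ser had 0.0401, 0.0325 and 0.0382, and Act42A had 0.0093, 0.0044 and 0.0068. Leaving out 1 library gave -0.149 to 0.0539 for Ser, with 0.0213 without brain library 2 and the highest without brain library 3. It gave -0.328 to 0.157 for Act42A (0.0177 without brain library 3, the highest without S2 library 2), -0.0036 to 0.2404 for Gapdh2 (the lowest without S2 library 2), and -0.16 to 0.226 for PCNA (the lowest without S2 library 1, -0.0259 without S2 library 3). List medians, taken relative to all genes tested, kept their sign in 584 of 602 cases over 43 lists and families. The list of Atx2 partners and RNA granules, 0.222 above all genes tested, was below them at -0.0728 without a filter and -0.0747 with DESeq2. Of the named folds against 0 to 3 counts, only that of DptB moved by over 1.5 times when a library of the group with the reads was left out.

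Chromosome medians, relative to all genes of at least 20 CPM in both groups, moved little. Leaving out 1 library gave 0.19 to 0.21 for the X, -0.20 to -0.17 for 2L, -0.0688 to -0.0448 for 2R, -0.0152 to 0.0142 for 3L, -0.0103 to 0.00516 for 3R and 0.70 to 0.77 for chromosome 4. The cause of the changes of direction was not tested. Promoter motif shares, an alternative of the plan, were not run, since no sequence was used here. Depth limits statements on genes at 0 to 3 counts in a group, whose folds are bounds or have wide counting intervals.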
